A study of Mus musculus with 4 samples.

Results

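Lymphatic endothelial cells were selected from single-cell RNA sequencing of transplanted mouse hearts. A cell was a member if it had over 200 detected genes and under 20% of its UMIs (unique molecular identifiers, each counting 1 captured RNA molecule) from mitochondrial genes, at least 1 UMI of *Prox1*, at least 1 of *Mmrn1*, *Reln* or *Lyve1*, at least 1 of *Cdh5* or *Pecam1*, and none of *Ptprc*, *Gja5* or *Npr3*. The rule found 212 of the 44626 cells that passed the same limits on genes and mitochondrial UMIs, or 0.475% (exact Clopper-Pearson 95% interval 0.413 to 0.543). The study transplanted hearts of Balb/C donors (allogeneic grafts) or C57BL/6J donors (syngeneic grafts) into the abdomen of C57BL/6J recipients and dissociated whole grafts on day 5. There were 2 grafts of each kind and no genetic change or drug in either. A graft also holds cells of the recipient, and donor and recipient cells were not told apart here.

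The 53824 deposited cells stand in a single matrix whose barcodes carry suffixes 1 to 4, called libraries 1 to 4 here. No source used here pairs a suffix with a graft. Allogeneic and syngeneic cells were therefore not compared, the 4 libraries cannot serve as replicates of either graft type, and no p-value is given. Members numbered 83, 45, 78 and 6 in libraries 1 to 4. Members of library 2 and library 4 stood apart from those of the other libraries in many of the genes below, so main values are given library by library and the others for the pool. Across the matrix 616 cells shared a barcode with a cell of another library, and 0 of them were members.

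Lymphatic capillaries take up fluid, proteins and leukocytes from tissue, and collecting vessels with valves carry them to lymph nodes. The transcription factor PROX1 sets and keeps lymphatic identity, and VEGFR-3, encoded by *Flt4*, receives the growth factor VEGF-C that drives lymphatic growth. Lymphatic endothelium secretes the chemokine CCL21, which draws CCR7-bearing dendritic cells and T cells into lymph, a route by which antigen of a transplanted heart can reach lymph nodes.

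The genes named in the rule give a description and not a finding. A level in CPM is the pooled UMIs of a gene per 1000000 non-mitochondrial UMIs in a set of cells. Ranges in parentheses after a level are exact Poisson 95% intervals, which cover counting error only. *Mmrn1*, an extracellular matrix protein of platelets and endothelium, stood at 2147, 757, 1686 and 1050 CPM in members of libraries 1 to 4. *Lyve1*, a hyaluronan receptor, stood at 1590, 1707, 1226 and 594 CPM, and *Prox1* at 736, 177, 628 and 325 CPM. All 3 of *Mmrn1*, *Reln* and *Lyve1* were found in 149 members, 2 of them in 34 and 1 in 29.

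Cells near the limits of the rule differed in how lymphatic they looked. The 37 members with a single *Prox1* UMI had *Ccl21a* at 3812 CPM, against 19412 CPM in the 175 with 2 or more. Just outside the rule, 15 cells had no *Prox1* UMI but had all 3 of *Mmrn1*, *Reln* and *Lyve1*, and they had *Ccl21a* at 16181 CPM. A further 78 cells were kept out by a UMI of *Ptprc*, *Gja5* or *Npr3*, of which 35 had *Ptprc*. The 259 cells with *Prox1* but none of *Mmrn1*, *Reln* and *Lyve1* had *Ccl21a* at 3.24 CPM.

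The label was checked on 24 lymphatic markers that the rule did not use. The median member had a UMI of 19 of the 24, and the median capillary endothelial cell had 6. Capillary endothelial cells are here the 11425 cells with UMIs of *Cdh5*, *Pecam1* and *Gpihbp1*, the capillary protein that anchors lipoprotein lipase, and none of *Prox1*, *Ptprc*, *Gja5* or *Npr3*. Members had more UMIs, with a median of 10619 against 6135. After each cell was thinned at random to 1000 UMIs, which left out 1 member and 190 capillary cells, the medians were 9 and 2 markers. By library the thinned median of members was 10, 5, 9.5 and 5 markers. Among all members, 189 had 12 or more markers and 4 had under 6. Of the 11425 capillary cells, which were less deep, 477 had 12 or more and 5090 had under 6. Reaching 12 markers is thus not particular to members. The label thus held for most members by these markers, with fewer of them in libraries 2 and 4. Whether the 40 members that had no *Ccl21a* UMI are all lymphatic cells is in doubt. They included 23 of the 45 members of library 2, of which 18 had 12 or more markers. In libraries 1, 3 and 4, 3 of 8, 3 of 8 and 0 of 1 such members had 12 or more. Levels given for members of a library include these cells, unless the text sets them apart. In library 4 a single member held 83607 of the 144773 UMIs of the 6 members, so that its levels rest largely on that cell.

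**Figure D1:**
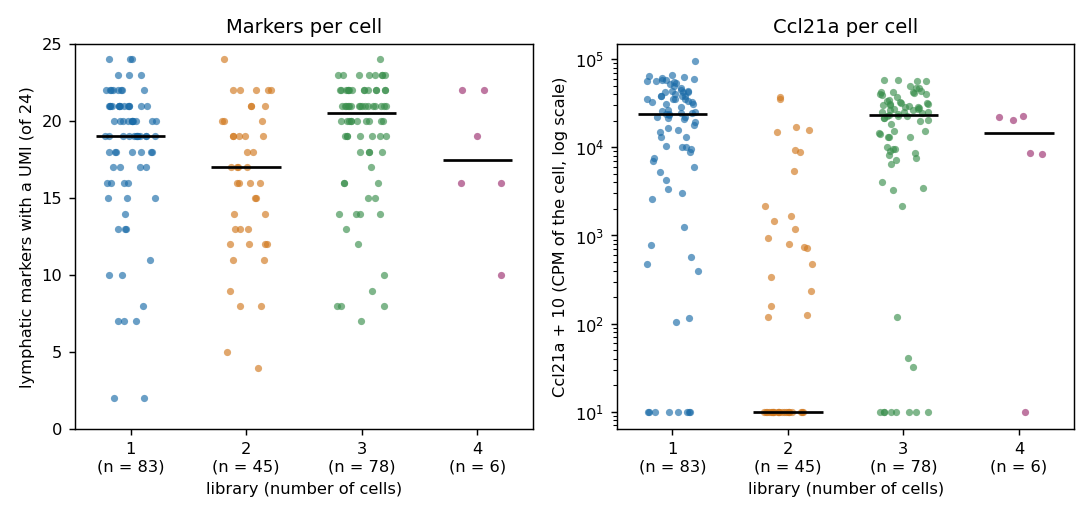
Each point is 1 member cell, by library on the x axis; the left axis counts how many of the 24 lymphatic markers had a UMI and the right axis gives *Ccl21a* in CPM of the cell with 10 added, on a log scale. Black lines mark medians. The medians of library 2 lie at 17 markers and at 0 CPM of *Ccl21a*, where 23 of its 45 members sit.

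Lymphatic endothelial cells made up 0.804%, 0.342%, 0.792% and 0.0531% of the kept cells of libraries 1 to 4. Library 4 held few endothelial cells of any kind. Endothelial cells were here the members plus all kept cells with UMIs of both *Cdh5* and *Pecam1* and none of *Ptprc* or *Prox1*. Members needed only *Cdh5* or *Pecam1*, and cells with *Prox1* that were not members were left out. As a share of endothelial cells, the members made up 1.91% (1.53 to 2.37), 0.949% (0.693 to 1.27), 1.89% (1.5 to 2.35) and 1.28% (0.471 to 2.76) of libraries 1 to 4. On that denominator the interval of library 4 held the values of the other 3 libraries, and library 2 had the lowest share. These binomial intervals cover counting error only, and with 1 library each no difference between libraries was tested. Whole-graft dissociation sets which cells are recovered, and its part in these shares was not tested.

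Against capillary endothelial cells, 484 of 9149 tested genes were higher by 2-fold or more in members (5.29%) and 438 were lower (4.79%). A gene was tested if it reached 10 CPM in either group, and 10 CPM were added to both levels before each ratio, which understates the difference of low genes. The median log2 ratio of all tested genes was 0.06. Of the 922 genes past 2-fold, 879 differed in the same direction in each of libraries 1, 2 and 3. These libraries held most members of the pool that picked the genes, so this agreement is in part built in. It was not set against the same count over all tested genes. Each count beside a gene list below is to be read against the shares of all tested genes past 2-fold. Members were picked out by lymphatic genes and comparison cells by *Gpihbp1*, so genes that travel with those had to differ, and no list is offered as a test.

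**Figure D2:**
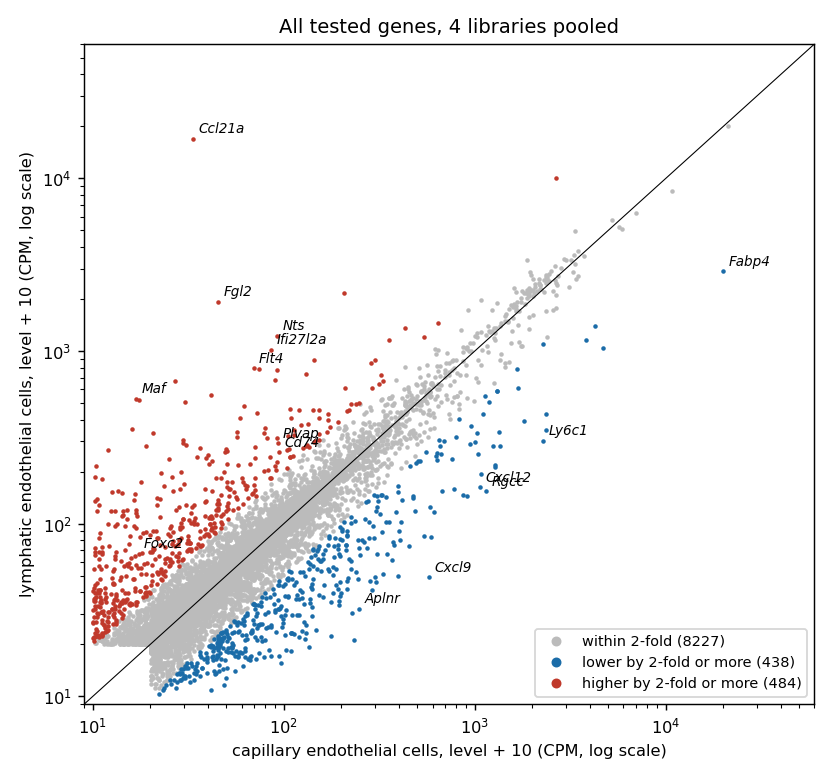
Each point is 1 of the 9149 tested genes, with its level in capillary endothelial cells on the x axis and in lymphatic endothelial cells on the y axis, in CPM with 10 added on log scales, 4 libraries pooled. Red marks the 484 genes higher and blue the 438 genes lower by 2-fold or more in lymphatic cells, and *Ccl21a* lies farthest above the line of equality.

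Of the 24 lymphatic markers outside the rule, 19 were higher by 2-fold or more and 1 was lower, with a median log2 ratio of 3.42. The count was 20, 17, 20 and 18 in libraries 1 to 4, where 7.2%, 3.32%, 5.42% and 7.33% of all tested genes were higher. The lower one was *Fabp5*, a fatty acid binding protein, at 137 CPM against 854 in capillary cells. The same gene was lower in each library.

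Among regulators of transcription, *Maf* stood at 788, 285, 435 and 759.8 CPM in members of libraries 1 to 4 and between 4.89 and 8.97 CPM in capillary cells. *Tbx1*, a T-box factor, stood at 257, 69.6, 165 and 332 CPM, and was at most 1.85 CPM in capillary cells of any library. *Nr2f2*, the venous and lymphatic factor COUP-TFII, stood at 552, 378, 361 and 428 CPM against 62.4 CPM in capillary cells. The levels of members and capillary cells did not overlap across libraries for any of the 3 genes. How many of all tested genes did the same was not counted, so this describes the 3 genes only. *Maf* and *Tbx1* were also among the genes picked below by size of ratio, which favours such a gap. *Sox18*, which acts upstream of *Prox1* in lymphatic development, stood at 296 CPM against 336 in capillary cells and was within 2-fold.

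Among genes of secreted and surface proteins, *Fgl2*, a fibrinogen-like protein, stood at 2832, 1387, 1561 and 1761 CPM in members against at most 54.3 CPM in capillary cells of any library (log2 ratio 5.41). *Nts*, which encodes the peptide neurotensin, was among the steadiest, at 1099, 1194, 1319 and 1223 CPM. Capillary cells had it at 51.2, 99.7, 87.1 and 99.7 CPM. *Lbp*, the lipopolysaccharide binding protein, stood at 918, 617, 462 and 781 CPM, against 16.9 CPM in pooled capillary cells. *Cp*, the copper-carrying ceruloplasmin, stood at 754, 410.5, 424 and 981 CPM, against 31.5 CPM. *Pdpn*, the membrane glycoprotein podoplanin, stood at 281, 278, 278 and 193 CPM.

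**Figure D3:**
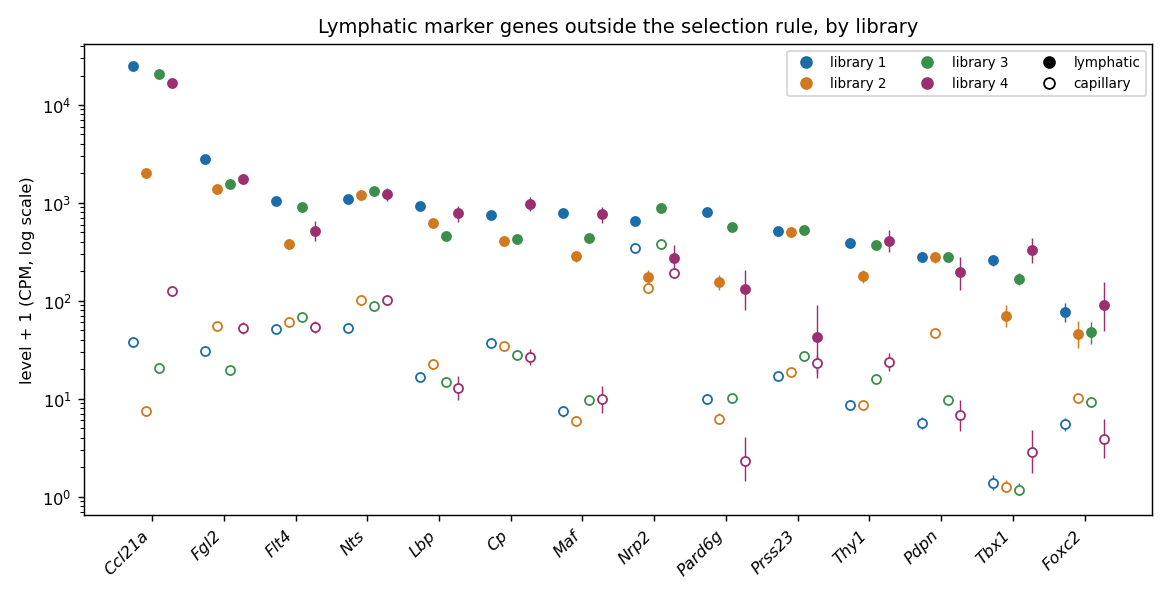
Levels of 14 lymphatic genes outside the rule are shown on the y axis in CPM with 1 added on a log scale, with filled points for lymphatic and open points for capillary endothelial cells, a colour for each library and bars for exact Poisson 95% intervals. For *Ccl21a* the library 2 point lies at 2029 CPM, below the other lymphatic points at 16951 to 25054 CPM and above the capillary points of the gene.

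The genes chosen by size of ratio, 15 higher and 10 lower, are named by rule. Beside those above, the 15 held *Pard6g*, a cell polarity protein, at 809, 153, 565 and 131 CPM in members of libraries 1 to 4, and *Thy1* at 391, 176, 366 and 408 CPM. They held *Clca3a1* at 553, 99.7, 288 and 822 CPM, *Slc45a3* at 347, 84.7, 311 and 186 CPM and *Gpm6a* at 288, 88.1, 139.8 and 124 CPM. *Ntn1*, which encodes netrin-1, stood at 422, 63.8, 316 and 96.7 CPM, and *Prss23*, a secreted protease, and *Dtx1*, an E3 ubiquitin ligase of the Notch pathway, also belonged to the 15. In the pooled capillary cells each of these stood at 20.4 CPM or lower. Levels of most of these genes differed several-fold between libraries. Members of library 4 had *Prss23* at 41.4 CPM, whereas the other libraries had 521, 497 and 531 CPM. *Dtx1* stood at 353 and 243 CPM in libraries 1 and 3 and at 13.9 and 13.8 CPM in libraries 2 and 4. The 10 lower genes were *Cxcl9*, *AW112010*, *Prg4*, *Aplnr*, *Ly6c1*, *C1qtnf9*, *Rgcc*, *Sox17*, *Nrp1* and *Ccdc85a*. Among them *Aplnr*, the apelin receptor, stood at 22.2 CPM against 239, and *Rgcc* at 144 against 1138.

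**Figure D4:**
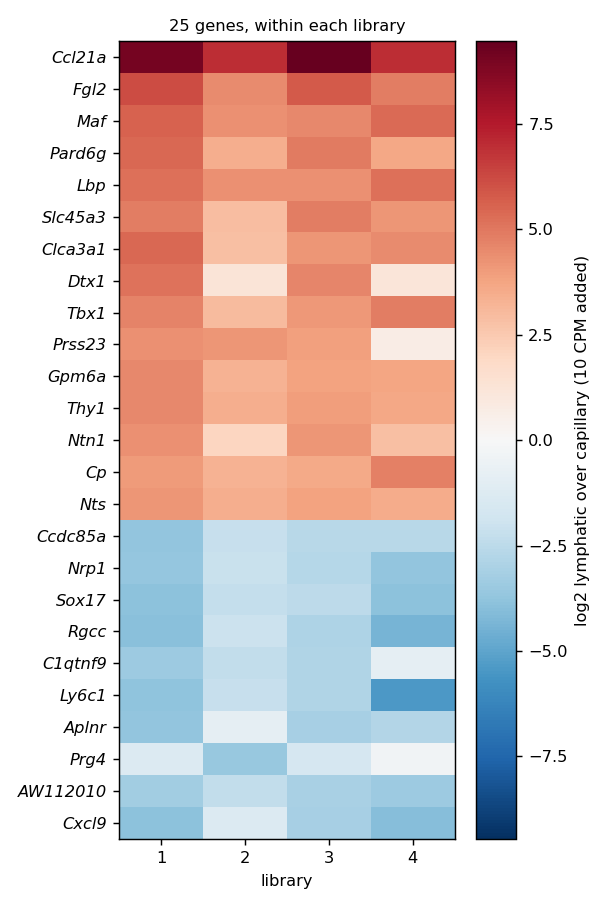
Colours give the log2 ratio of lymphatic over capillary level, with 10 CPM added to both, within each library on the x axis, for the 15 genes highest and 10 lowest by pooled ratio on the y axis. The rule fixed the direction in libraries 1 to 3, and in library 4 several of the lower genes had 0 UMIs in the 6 members.

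The most abundant lymphatic transcript of the lists was *Ccl21a*, the ligand that guides CCR7-bearing leukocytes (ENSMUSG00000094686, minus strand, chr4:42772860-42773993 of GRCm38, a protein-coding gene in GENCODE M21). Members of libraries 1 to 4 had it at 25054 (24744 to 25367), 2029 (1935 to 2127), 20804 (20551 to 21059) and 16951 (16287 to 17635) CPM. Library 2 was the low one, and its interval lay far from those of the other libraries. Capillary cells of the same libraries had 36.9, 6.41, 19.7 and 124.5 CPM. The highest capillary cell stood at 56225 CPM, and whether such cells are lymphatic cells without a captured *Prox1* molecule was not tested. A UMI of *Ccl21a* was found in 81.1% of members, in 5.26% of capillary cells and in 7.52% of the 3150 fibroblasts, whose median depth of 13986 UMIs was above that of members. After thinning these shares were 75.8%, 1.14% and 0.899%. Mouse genomes carry near-identical copies of this gene, and reads that match several copies could have been dropped or assigned to one. In members the related gene *Gm21541* had 145 UMIs, and *Ccl21b*, *Ccl21c* and a further entry named *Ccl21a* had 0. The level of *Ccl21a* is therefore uncertain to the extent that its copies share reads.

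Cells within a library differed widely in *Ccl21a*. The lowest, median and highest member stood at 0, 24106 and 94115 CPM in library 1, at 0, 0 and 37033 in library 2, at 0, 23066 and 57713 in library 3 and at 0, 14556 and 22627 in library 4. Members without a *Ccl21a* UMI numbered 8, 23, 8 and 1. The split that follows was made after these values were seen. In library 2 the 23 members without *Ccl21a* had *Flt4* at 208 CPM and *Maf* at 122 CPM, against 680 and 569 CPM in the 22 with it. Both sets had *Nts*, at 1162 and 1251 CPM, and *Prss23*, at 555 and 397 CPM. Their median marker counts were 14 and 19 of 24, although the cells without *Ccl21a* were deeper, with 18756 against 10721 UMIs. The 8 members without *Ccl21a* had medians of 7 markers in library 1 and 9.5 in library 3. Across libraries the 40 members without *Ccl21a* had *Fabp4*, a fatty acid binding protein of capillary endothelium, at 7052 CPM against 1564 CPM in the 172 with it.

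The VEGF-C and angiopoietin list, which sets lymphatic growth, held 4 genes higher and 3 lower (*Flt1*, *Nrp1* and *Ramp3*) of 18 tested. *Flt4*, the VEGF-C receptor, stood at 1032, 380.4, 897 and 518 CPM in members of libraries 1 to 4 and at 50.2, 59.6, 66.9 and 52.8 CPM in capillary cells. Every member level was above every capillary level, and how many of all tested genes did the same was not counted. Library 2 was lowest, but its 22 members with *Ccl21a* had *Flt4* at 680 CPM, above the 540.3 CPM of the 5 such members of library 4. Its co-receptor *Nrp2* stood at 601 CPM against 278, while *Nrp1* and *Flt1*, which bind VEGF-A, stood at 73.6 and 207 CPM against 578 and 1265. The ligand genes were low in both cell groups: *Vegfc* stood at 11.1 CPM in members and 31.1 in capillary cells, and *Vegfd* at 3.39 and 4.19 CPM.

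*Adm* and *Angpt2* passed 2-fold in the pool, *Adm* through part of the libraries. This gene, which encodes the vascular peptide adrenomedullin, stood at 79.3, 867, 56.2 and 1049.9 CPM in members and at 81.2, 76.1, 54.0 and 39.8 CPM in capillary cells. Members were high in libraries 2 and 4 and level with capillary cells in libraries 1 and 3. In library 4 the 152 *Adm* UMIs lay in 3 of the 6 members. *Angpt2*, a ligand of the Tie2 receptor, stood at 119, 553, 84.3 and 283 CPM against 15.7, 45.6, 14.1 and 116 CPM. It was higher in members of every library, with library 2 highest. *Selp*, the leukocyte-rolling receptor P-selectin, stood at 48.2, 627, 64.3 and 111 CPM against 19.9, 63.5, 34.6 and 26.4 CPM. Of the 685 *Selp* UMIs in members, 504 lay in the 40 members without *Ccl21a*, at 641 CPM, against 73.5 CPM in the 172 with *Ccl21a*. The pooled level of *Selp* thus rested largely on members whose label is in doubt. Members with *Ccl21a* had *Selp* at 52.1, 321, 22.8 and 53.3 CPM in libraries 1 to 4, which in library 3 was below capillary cells. The levels of libraries 1 and 3 rested on few cells, since the 48 UMIs of library 1 lay in 4 members and 55 of the 80 UMIs of library 3 lay in 1.

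The list of chemokines, adhesion molecules and leukocyte passage held 7 genes higher and 6 lower of 28 tested, with a median log2 ratio of -0.00. Beside *Ccl21a*, the higher genes were *Selp*, *Stab1*, *Spns2*, *Sema3a*, *Ackr2* and *Il7*. Most *Selp* UMIs came from members without *Ccl21a*, as given above. *Il7*, the cytokine interleukin-7, stood at 121, 23.2, 86.0 and 48.4 CPM in members and at most 1.53 CPM in capillary cells of any library. *Ackr2*, a receptor that clears inflammatory chemokines, stood at 145, 73.1, 108 and 69.1 CPM, against 3.07 CPM in capillary cells. *Sema3a*, a guidance cue of lymphatic valves and dendritic cell entry, stood at 144 CPM against 3.46. *Spns2* exports sphingosine-1-phosphate, and stood at 193 CPM against 81.2. The lower genes were *Cxcl12*, *Cx3cl1*, *Jam2*, *Jam3*, *Plpp3* and *Sema7a*, with *Cxcl12* at 152 CPM against 1057. *Icam1* was within 2-fold, at 718 CPM against 885.

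*Vcam1*, which binds leukocyte integrins, was within 2-fold in the pool but not within the libraries. Members of libraries 1 to 4 had it at 12.04, 298, 35.3 and 283 CPM, and capillary cells at 87.1, 95.5, 96.0 and 1136 CPM. In library 2 members were higher than capillary cells, and in the other 3 libraries they were lower. *Ccl2*, a monocyte chemokine, stood at 38.1, 675, 197 and 104 CPM in members and at 81.4, 488, 90.9 and 193 CPM in capillary cells, with library 2 highest in both. *Ccl19*, the other CCR7 ligand, had 6 UMIs in all members.

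Genes of collecting vessels and valves were found in part of the members. Of the 18 genes in that list 9 were higher and 0 lower, with a median log2 ratio of 0.84. By library 9, 4, 8 and 6 were higher. *Foxc2*, a factor of valve formation, stood at 75.3, 45.2, 46.6 and 89.8 CPM in members and at 4.47, 9.13, 8.16 and 2.9 CPM in capillary cells. It was found in 41.0% of members, in 4.78% of capillary cells and in 19.4% of fibroblasts. After thinning the shares were 6.16%, 0.507% and 1.7%. *Itga9*, the valve integrin subunit, stood at 148 CPM against 18.5, and *Cldn11*, a claudin, at 27.4 against 0.394 CPM. *Foxp2* stood at 184, 10.4, 127 and 62.2 CPM and *Gja4*, a connexin, at 177, 17.4, 195 and 55.3 CPM. Members of library 2 had the lowest level of each, and for *Gja4* members of libraries 2 and 4 lay below their capillary cells, at 30.5 and 89.4 CPM. *Gata2*, *Mgp* and *Bmp4* were within 2-fold.

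The list of a Ptx3-expressing state of lymphatic capillaries held 3 genes higher and 1 lower (*Csf2rb*) of 6 tested. *Stab1*, a scavenger receptor, stood at 924, 304, 899.7 and 1174 CPM in members and between 69.1 and 87.9 CPM in capillary cells. *Mrc1*, the mannose receptor, stood at 87.1 CPM against 4.76. *Ptx3* itself, a secreted pattern-recognition protein, did not hold one direction by library. Members had it at 82.3, 15.1, 239 and 0 CPM and capillary cells at 7.03, 85.6, 11.2 and 4.22 CPM, so library 2 ran opposite to libraries 1 and 3. Fibroblasts had *Ptx3* at 1294 CPM in library 2 and at 461 CPM in library 4, and the part of their RNA in these levels was not tested.

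Junction genes were mostly level or lower. Of 11 tested, 1 was higher (*Cldn11*) and 4 were lower, namely *Esam*, *Jam2*, *Jam3* and *Afdn*. *Esam*, an endothelial adhesion molecule, stood at 148 CPM against 771. *Cldn5*, the main endothelial claudin, stood at 2353, 690, 1985 and 1361 CPM in members and at 711, 1331, 683 and 535 CPM in capillary cells. Members of library 2 were below their capillary cells and those of the other 3 libraries above.

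Of 16 matrix and hyaluronan genes tested, 2 were higher and 3 lower. *Timp2*, a metalloprotease inhibitor, stood at 870.1, 241, 865 and 173 CPM in members and at 112, 32.4, 107 and 22.7 CPM in capillary cells. Members were above capillary cells in each library. *Emilin1*, an elastic fibre protein that anchors lymphatic vessels, stood at 199.8 CPM against 94.2. *Col4a1*, *Col4a2* and *Hspg2*, components of basement membrane, stood at 1085, 579 and 309 CPM against 2261, 1295 and 782 CPM. Lymphatic capillaries are known for a sparse basement membrane.

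Blood endothelial markers were low in members but not absent. Of 20 tested, 15 were lower and 1 was higher, with a median log2 ratio of -2.51. By library 17, 15, 18 and 17 were lower, where 6.48%, 5.09%, 5.41% and 11.7% of all tested genes were. The summed level of the list was 4141, 12657, 5818 and 5844 CPM in members of libraries 1 to 4 and 35066, 47696, 31986 and 27343 CPM in capillary cells. Members of library 2 had the highest sum. Its most abundant gene, *Fabp4*, stood at 1104, 5953, 2290 and 2141 CPM. *Gpihbp1* had a UMI in 64.6% of members, at 278 CPM against 1559 in capillary cells, a level the choice of comparison cells fixes in part. In the 75 members without a *Gpihbp1* UMI, *Ccl21a* stood at 13472 CPM. Doublets of 2 cell types were marked by simulation in 12 of the 212 members, and without them *Ccl21a* stood at 18478 CPM. Neither the part of doublets nor that of free RNA in these values was tested.

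The higher gene of that list was *Plvap*, the diaphragm protein of fenestrated and some inflamed endothelium. Members had it at 276, 129.9, 291 and 1139.7 CPM (the last 972 to 1328) and capillary cells at 25.6, 36.9, 138 and 409 CPM. Members were above capillary cells in every library, and library 4 was highest in both.

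In the pool, 0 of 24 interferon gamma response genes were higher in members and 8 were lower, with a median log2 ratio of -0.53, namely *Irf1*, *Socs1*, *Cxcl9*, *Cxcl10*, *Iigp1*, *Tgtp2*, *Ubd* and *Ifngr1*. By library 10, 4, 13 and 4 were lower and 0 were higher. The summed level of the list was 2181, 652, 1295 and 15839 CPM in members of libraries 1 to 4. In capillary cells it was 6282, 1181, 3641 and 28286 CPM. Capillary cells were higher in each library, and both cell groups were lowest in library 2 and highest in library 4. The highest member level was 24.3 times (22.2 to 26.7) the lowest, 12.2 times without library 2 and 3.35 times without library 4. This range is an exact interval for a ratio of Poisson counts and covers counting error only. It takes no account of the choice of libraries as highest and lowest after their values were seen.

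*Cxcl9*, a chemokine for activated T cells, stood at 22.1, 2.32, 11.2 and 608 CPM in members and at 468, 20.4, 181 and 10073 CPM in capillary cells. Every library had the lower level in members (pooled log2 ratio -3.55). In library 1, 12 of the 22 *Cxcl9* UMIs came from 1 member without *Ccl21a*, and the 75 members with *Ccl21a* had it at 8.68 CPM. In library 4 all 6 members and 99.7% of 322 capillary cells had a UMI of it. Of the 88 *Cxcl9* UMIs in those members, 66 came from 1 cell, the only one of the 6 without *Ccl21a*. The remaining 5 members had *Cxcl9* at 167 CPM (105 to 253). The same cell held 51 of the 66 UMIs of *Ubd*, a ubiquitin-like modifier induced by interferon gamma and TNF. *Ubd* stood at 456 CPM in members of library 4 and at 114 CPM in the 5 others, against 1471 CPM in capillary cells. It had 0 UMIs in the 206 members of libraries 1 to 3, which allows up to 3 UMIs in each library. In capillary cells of those libraries it was at most 2.13 CPM.

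*Gbp4*, an interferon-induced guanylate-binding protein, was near capillary levels in library 4, at 2977 CPM against 2472. In libraries 1 to 3 members had it at 55.2, 5.8 and 25.7 CPM and capillary cells at 152, 26.2 and 79.2 CPM. The proteasome subunit gene *Psmb8* stood at 1527 CPM in members of library 4 and 1594 in capillary cells.

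Stretches upstream of 3 interferon gamma response genes are shown because these genes were high in members of library 4 and hold letter patterns known from interferon-regulated promoters. Searched on both strands in the 250 bases before each RefSeq start site (GRCm38.p6) were the ISRE-like pattern GAAANNGAAA and the GAS-like pattern TTCNNNGAA, and a match of one can overlap a match of the other. Of the 25 genes in the list 19 matched RefSeq promoters, 21 in all. The ISRE-like pattern was in 11 of these (52.4%) and in 2.98% of all 32851 promoters, and the GAS-like pattern in 8 (38.1%) and 7.02%. The promoters of *Cxcl9* and *Ubd* held neither pattern in this window. That of *Gbp7* also held 2 GAS-like matches, which are not shown. Capitals mark the pattern, and each stretch reads 5′ to 3′ on the plus strand, which is the strand of all 3 genes, so the ISRE-like pattern appears as its reverse complement.
Psmb8, GAS-like, chr17:34198087-34198116: gtcctccgctgTTCCCAGAAgatgcccccc
Gbp2, ISRE-like, chr3:142620594-142620623: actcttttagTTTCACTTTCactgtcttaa
Gbp7, ISRE-like, chr3:142530273-142530302: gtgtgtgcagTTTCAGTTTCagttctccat
The *Gbp7* stretch lies before the gene in GENCODE M21 as well. That annotation starts *Gbp2* within the stretch shown, at 142620602, and *Psmb8* before it, at 34197721. A match is a description of letters and not a measured binding site. *Gbp2* stood at 131, 44.1, 41.8 and 974 CPM in members of libraries 1 to 4, and *Gbp7* at 208, 44.1, 103 and 822 CPM.

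MHC class II genes, which present peptides to CD4 T cells, were far higher in library 4 than in the other libraries. The summed level was 209, 16.2, 74.7 and 9056 CPM in members of libraries 1 to 4 and 138, 40.0, 145 and 2722 CPM in capillary cells. In library 4 members lay above capillary cells, with the 5 tested genes of the list higher by 2-fold or more, and in libraries 1 to 3 none of the 5 reached 2-fold in either direction. The highest member level was 558 times (331 to 1023) the lowest, 121 times without library 2 and 12.9 times without library 4. This range has the same limits as that of the interferon gamma list. The lowest level, 16.2 CPM, rests on few UMIs and the highest on 6 cells. In library 1 a single member held 18 of the 42 *H2-Ab1* UMIs and 39 of the 73 *Cd74* UMIs. *H2-Ab1*, the class II beta chain, stood at 1478 CPM (1287 to 1690) in members of library 4, at 517 CPM (495 to 541) in capillary cells and at 513 CPM in fibroblasts. *Cd74*, the invariant chain, stood at 4849, 1308 and 1179.9 CPM in the same groups. *Ciita*, the class II transactivator, stood at 124 CPM in members and 33.2 in capillary cells.

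All 6 members of library 4 had *H2-Ab1*, with 23, 8, 120, 27, 6 and 30 UMIs in cells of 13356, 4769, 83607, 20413, 4110 and 18518 UMIs. Without the member that lacked *Ccl21a*, *H2-Ab1* stood at 1453 CPM and *Cd74* at 5121 CPM. Library 4 was the library with most macrophages, which had *H2-Ab1* at 6170.4 CPM there. The 10 macrophage and dendritic genes summed to 276 CPM in its 6 members, led by *Lyz2* at 186 CPM, and to 511 CPM in its capillary cells. *C1qa* stood at 13.8 and 74.4 CPM in the same cells, and *Adgre1*, *Cd209a* and *Flt3* were at 0 in the members. The 8 lymphocyte genes summed to 48.4 CPM in those members and 70.7 CPM in capillary cells. The part of macrophage RNA in the class II level was not tested. With 6 cells the level rests on few cells, and how it would vary between cells drawn again was not tested.

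MHC class I and peptide loading genes were likewise highest in library 4 and lowest in library 2. Members had a summed level of 6332, 3449, 4554 and 27567 CPM, and capillary cells 10409.8, 5342, 7926 and 27863 CPM. Members were lower in libraries 1 to 3, and in library 4 the intervals of 26719 to 28436 and 27695 to 28032 CPM overlapped. Over the pool, 3 of 14 genes were lower by 2-fold or more (*H2-Q4*, *H2-Q6* and *H2-Q7*, close relatives whose reads can be shared) and 0 were higher.

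**Figure D5:**
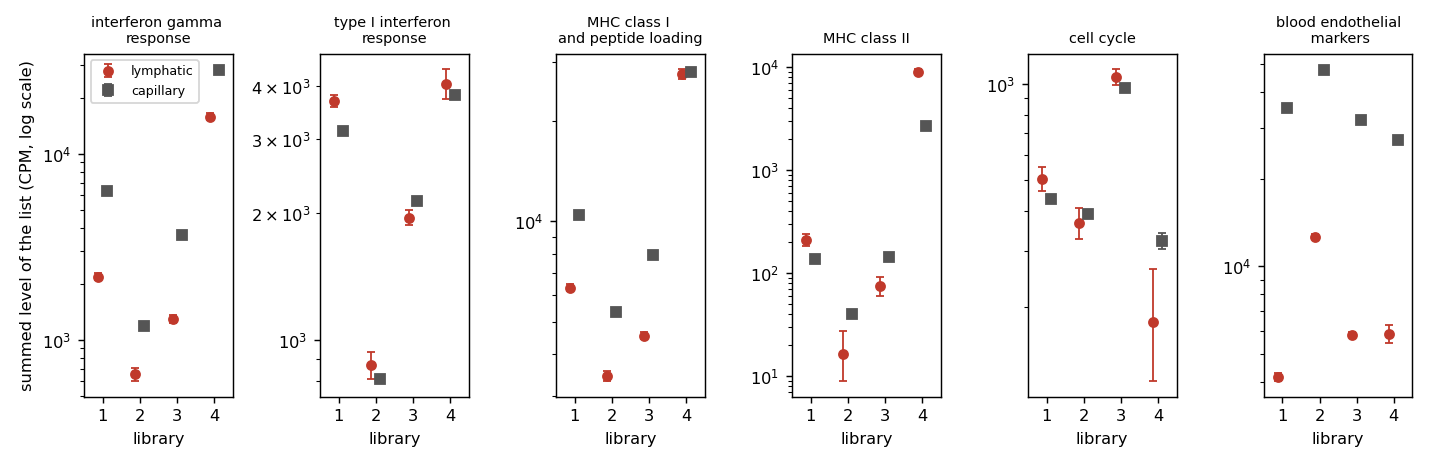
Each panel gives the summed level of 1 gene list on the y axis, in CPM on a log scale, by library on the x axis, with circles for lymphatic and squares for capillary endothelial cells and bars for exact Poisson 95% intervals. Interferon gamma and MHC class I sums lie at or below the capillary sums, and the MHC class II sum of library 4 lies above it, at 9056 against 2722 CPM.

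The type I interferon list held 1 gene higher and 5 lower of 18 tested. The higher gene was *Ifi27l2a*, an interferon-induced membrane protein, at 1582, 291, 899.7 and 2203 CPM in members and 84.9, 33.9, 101 and 165 CPM in capillary cells. Members were 3.57 above capillary cells on the log2 scale in the pool and higher in each library. The lower genes were *Ifit1*, *Rsad2*, *Oasl1*, *Oasl2* and *Rtp4*, of which *Rsad2* stood at 36.0 CPM against 295. The summed level of the list came to 3684, 869.7, 1949 and 4041 CPM in members and 3129, 807, 2140.2 and 3801 CPM in capillary cells, where *Ifi27l2a* had the highest level of the list in members of each library. The median log2 ratio of the list was -0.31, -0.44, -0.75 and -0.91 in libraries 1 to 4, so that sum and median differed in direction in libraries 1, 2 and 4.

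Of 9 tested genes with which endothelium regulates T cells, 2 were higher (*Tgfb2* and *Cd47*) and 2 lower (*Cd274* and *Nos2*). *Cd274*, which encodes PD-L1, stood at 26.1, 6.96, 8.84 and 221 CPM in members and at 136, 20.2, 47.0 and 742 CPM in capillary cells. Members were lower in every library. *Cd47*, the signal that restrains phagocytes, stood at 891, 455, 569 and 1071 CPM against 364, 286, 311 and 426 CPM and was higher in every library.

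Cell cycle genes had their highest summed level in library 3. None of 16 tested genes reached 2-fold in the pool in either direction. By library 3, 0, 1 and 0 of them were higher and 1, 0, 0 and 2 were lower. Their summed level was 505, 366, 1049.9 and 179.6 CPM in members of libraries 1 to 4 and 435, 391.8, 973 and 322 CPM in capillary cells. *Mki67*, a marker of cycling cells, had 5, 0, 80 and 0 UMIs in members, found in 2, 0, 13 and 0 cells. In library 3 this came to 64.3 CPM (51.0 to 80.0) in members and 59.8 CPM in capillary cells, so both cell groups were high in the same library. The zeros allow up to 3 UMIs in each of libraries 2 and 4.

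Immediate early genes, which tissue dissociation can induce, were 0 higher and 2 lower (*Klf2* and *Hspa1a*) of 17 in the pool. Their median log2 ratio was -0.55, with 1 of the 17 above 0, and 7, 2, 3 and 3 were lower in libraries 1 to 4. *Klf2*, a flow-responsive factor, stood at 781 CPM against 1646.

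Members carried signals of other cells that differed between libraries. The 5 granulocyte genes summed to 3496 CPM in members of library 2, led by *S100a9* at 1651 CPM, and to 26.1, 11.2 and 20.7 CPM in libraries 1, 3 and 4. Capillary cells of library 2 had 2912 CPM of the same genes. The macrophage and dendritic sum was 582 CPM in members of library 2 against 164 CPM in its capillary cells, with *C1qa* at 196 against 16.4 CPM. The fibroblast genes ran the other way, at 93.9 CPM in library 2 and 2172, 4694 and 1071 CPM in libraries 1, 3 and 4, where *Dcn* led, with 1333 CPM in library 1. Capillary cells had 3406, 928, 4909 and 394 CPM of the fibroblast genes. Red cell genes summed to 239, 112, 4469.6 and 62.2 CPM, and cardiomyocyte genes to 523, 241, 139.8 and 0 CPM, against 18745, 3177, 7115 and 4792 CPM and 1157, 344, 387 and 113 CPM in capillary cells. Pericyte and smooth muscle genes summed to 648, 543, 833 and 166 CPM in members and 1252, 1003, 1347 and 222 CPM in capillary cells. Mesothelial and Schwann cell genes were at most 32.5 and 9.03 CPM in members of any library. Over these lists of other cells, 1 tested gene was higher in members by 2-fold or more in the pool (*C1qa*), while *Myl2*, *Fabp3*, *Wt1*, *Rgs5*, *Acta2* and the 5 red cell genes were lower. The part of other cells' RNA in the results of members was not tested. Without library 2, 538 genes were higher and 503 lower than in capillary cells.

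A further 3 genes were chosen after their values were seen. *Lcn2*, which encodes lipocalin-2 and is also made by neutrophils, stood at 339, 6992, 236 and 2114 CPM in members and 5.77, 551, 2.52 and 25.6 CPM in capillary cells. *Csf3*, the granulocyte growth factor G-CSF, stood at 28.1, 625, 5.62 and 0 CPM in members. *Igfbp5*, an insulin-like growth factor binding protein, stood at 1190.2, 170.5, 909 and 332 CPM. *Lcn2* was higher in members than in capillary cells of the same library in all 4 libraries, and it and *Csf3* were highest in library 2, where *Igfbp5* was lowest.

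Members also differed from the other endothelial groups of the matrix. Of 9248 genes tested against 846 arterial endothelial cells (*Gja5* present, *Npr3* absent), 490 were higher (5.3%) and 588 lower (6.36%). Against 216 cells with *Npr3* and no *Gja5*, 336 of 9329 were higher (3.6%) and 478 lower (5.12%). Of 4 tested arterial and endocardial genes *Nfatc1* was higher than in capillary cells. *Ccl21a* stood at 5.02 CPM in the arterial cells and 7.53 CPM in the cells with *Npr3*. *Lbp* and *Cp* were nearer to members in the cells with *Npr3*, with log2 ratios of 1.60 and 1.19 against 4.63 and 3.75 toward capillary cells. *Maf* and *Pard6g* kept ratios of 4.42 and 4.64. These groups share the same members, so the counts are not independent of each other.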

How the data were processed

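Single-cell suspensions of whole grafts were sequenced with the 10x Genomics 3' v3 kit. The authors deposited UMI counts per gene and cell, without normalization, in a single matrix of 30905 genes and 53824 cells made with Cell Ranger 3.0.0 on mm10, per the file headers. CASAVA 1.8 and Seurat are also named in the submitters' processing notes. Libraries held 96020294, 115162601, 138892048 and 166079145 UMIs. Members and comparison cells were taken by UMI counts and mitochondrial genes were removed. Levels were computed as pooled UMIs per 1000000, without a model or test. The matrix holds libraries that no source used here pairs with grafts, and a comparison of cell groups blocked by library was not made. Ratios have 10 CPM added, with genes at or above 10 CPM in either group and a threshold of 2-fold. Genes named beyond the lists are the 15 highest and 10 lowest by pooled ratio, with at least 50 UMIs and 1 direction in each library of 20 or more members. The members and lists were chosen with earlier results of these data known. Of 350 list genes 2 were not in the matrix. Doublets were marked per library by simulation (2000 variable genes, 10 components, 50 neighbours, highest 5%) and kept in the reported values. Thinning took 1000 UMIs per cell with seed 20. The calculation of folds and intervals was checked on counts simulated from a Poisson model. That model had no variation between cells or libraries, so the check does not show how well the intervals hold here. Alternatives covered filters, scaling, comparison cells and leaving out libraries. Gene positions are from GENCODE M21. Python 3.11.15, numpy 2.4.6, scipy 1.17.1, pandas 2.3.3, scikit-learn 1.9.0, matplotlib 3.10.9, R 4.3.3 and edgeR 4.0.16 (TMM factors only) were used.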

Additional observations from a re-analysis of the deposited data

How the results depend on the processing

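Counts of genes past 2-fold stayed within 1.5 times of 484 higher and 438 lower under most alternatives. The exceptions were 1 CPM added in place of 10, which gave 764 and 671, and thinning to 1000 UMIs, which gave 767 and 823. Dropping the filter on low values could not change the counts, since 10 CPM added keeps such genes within 2-fold. A limit of at least 500 genes kept the same 212 members and 9149 tested genes. Neither of these bears on how stable the counts are. TMM scaling shifted all log2 ratios by 0.13 and gave 422 and 516. Leaving out 1 library gave 414 to 538 higher and 408 to 503 lower genes, a *Ccl21a* level of 13367 to 22345 CPM, a share of lymphatic cells of 0.376% to 0.618%, and a ratio of highest to lowest library of 3.35 to 24.3 for the interferon gamma list and 12.9 to 558 for MHC class II. The share was 0.392% with at least 2 *Prox1* UMIs. The *Ccl21a* level was 16391 CPM with under 10% mitochondrial UMIs, 19412 with at least 2 *Prox1* UMIs, 18478 without marked doublets, 19299 after thinning and 15962 as a mean of libraries 1 to 3. The interferon gamma ratio was 21.6 with at least 2 *Prox1* UMIs, and the MHC class II ratio was 993 with them and 793 without marked doublets. Restricting members to those without *Gpihbp1* or with at least 12 lymphatic markers was chosen after seeing the data. It gave *Ccl21a* at 13472 and 18362 CPM and an MHC class II ratio of 292 and 1131, and the second gave an interferon gamma ratio of 21.8. The causes were not tested. Between graft types, no paired analysis was possible because the matrix columns carry no graft numbers. Lymphatic and capillary cells could be paired within libraries, but a comparison blocked by library was not made. No result comes from a test. In library 4 the number of members, 6, limits what can be shown. Their depth was uneven, from 4110 to 83607 UMIs with a median of 15937.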
